A study of Mus musculus with 2 samples.

Results

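The ubiquitin-specific proteases (USPs) are the largest family of deubiquitinases, the enzymes that take ubiquitin off proteins. Members were all genes of the mouse annotation whose symbol is Usp followed by a digit and that have at least 1 transcript annotated protein_coding. Usp18, which removes the ubiquitin-like modifier Isg15, was left out. Of 59 matching symbols, 3 had no protein_coding transcript, and 55 members remained out of 55536 genes, of which 21901 had a protein_coding transcript. The rule uses symbols and annotation only.

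A USP cuts the bond between ubiquitin and its target, or between ubiquitins in a chain, with a cysteine that is activated by a histidine further along the protein. Removal of ubiquitin can spare a protein from the proteasome, recycle ubiquitin, change the sorting of a receptor or end a signal. In macrophages several deubiquitinases act on the ubiquitin chains built after Toll-like receptor stimulation, which carry the signal to NF-kappaB and to the interferon genes.

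Polyadenylated RNA was sequenced from bone marrow-derived macrophages of C57BL/6J mice. There were 2 libraries, biological replicates 1 and 2 of a single group, stimulated for 30 min at 100 ng/ml. The ligand is lipid A in the samples' descriptions and lipoprotein A in their source and treatment fields. The libraries carry the same donor record but separate sample records, sex and age were not collected, and no genotype change is named. No untreated sample was analysed here, so the levels below describe stimulated cells, and no value says what the stimulus did to a USP gene.

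Depth was 37784941 expected counts over genes in replicate 1 and 51904470 in replicate 2. The USP genes took 0.194% of them in replicate 1 (95% Wilson interval 0.193 to 0.196%) and 0.224% in replicate 2 (0.222 to 0.225%), intervals that cover counting error only. Macrophage markers were all present, 7 of 7 at 10 TPM or more in both libraries (TPM is a level scaled for transcript length). B cell, erythroid and stromal markers all stayed below 1 TPM in both. Of the T cell markers, Cd4 stood at 111 and 82.2 TPM while Cd3e, Cd3d and Cd8a were at 0.31 TPM or less. The libraries differed from each other in other ways: the 12 cell cycle genes examined summed to 578 TPM in replicate 1 and 335 in replicate 2, the 10 interferon genes to 825 and 2404 TPM, and the 7 neutrophil markers to 309 and 55.6 TPM, nearly all of it S100a9 and S100a8. All 7 neutrophil markers were lower in TPM in replicate 2. For Ly6g (1 and 0 counts), Retnlg (3 and 0) and Cxcr2 (31 and 28) this rests on few counts.

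The stretch around the catalytic cysteine is what makes a USP recognisable. It is shown here for some abundant members, for Usp9y and for some of the exceptions. Carrying it did not depend on the level: Usp9y, at 0 counts, matched the pattern below, and the abundant Usp25 did not. Coding sequence of the annotation (mm10, GENCODE M21) was translated and searched for N, any 3 residues, T or S, C, Y or F, any residue, N or A. At least 1 complete coding transcript matched in 46 of the 55 members (83.6%). Over all 21769 genes with a complete coding sequence, these members included, 57 matched (0.262%). The pattern is that of the family, so these shares are a description and no test. A histidine box, G or S followed by H and Y, lay after the cysteine match in 45 members, and no gene outside the 55 members had both. The last such box was taken, which need not hold the catalytic histidine: it was at codon 1879 in Usp9x and 2510 in Usp9y. Each line below is 48 bases of coding sequence, 5′ to 3′, with the cysteine codon, or the codon aligned with it, in capitals.
Usp8: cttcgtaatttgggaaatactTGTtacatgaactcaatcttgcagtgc
Usp5: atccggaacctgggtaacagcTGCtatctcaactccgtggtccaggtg
Usp9x: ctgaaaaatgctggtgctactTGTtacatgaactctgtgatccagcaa
Usp9y: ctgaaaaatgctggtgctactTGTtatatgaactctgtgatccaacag
Usp7: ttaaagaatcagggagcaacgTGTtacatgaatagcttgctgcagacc
Usp4: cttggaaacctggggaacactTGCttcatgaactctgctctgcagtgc
Usp15: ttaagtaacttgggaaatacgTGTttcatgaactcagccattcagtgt
Usp25: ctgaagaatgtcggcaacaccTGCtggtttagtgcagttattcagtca
Usp28: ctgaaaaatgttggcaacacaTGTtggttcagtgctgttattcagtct
Usp39: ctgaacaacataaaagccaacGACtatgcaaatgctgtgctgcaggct
Usp54: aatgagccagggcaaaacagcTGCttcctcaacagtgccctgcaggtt

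The Usp8 window lies at chr2:126751080-126751127 (plus strand), that of Usp5 at chr6:124822555-124822602 (minus strand), that of Usp9x at chrX:13145198-13145245 (plus strand), that of Usp9y at chrY:1333716-1333763 (minus strand) and that of Usp7 at chr16:8707665-8707712 (minus strand), each within a single coding exon. The windows of Usp4, Usp15, Usp25, Usp28, Usp39 and Usp54 run across an exon junction. Of the 9 members without a match, Usp25, Usp28, Usp10, Usp13 and Usp40 have a cysteine codon in a looser box, found with a pattern chosen after the sequences were seen. In Usp25 and Usp28 the codon after the cysteine is tgg, for tryptophan. Usp53 and Usp54 have the cysteine in a box matched as N, any 6 residues, C, Y or F, any residue, N. The cysteine itself is not displaced: in Usp54 the codon at the place of the main pattern's first N is cca, for proline. Usp39, a spliceosome protein without protease activity, has GAC, for aspartate, at the aligned codon. Usp6nl has no such stretch: it is a Rab GTPase-activating protein that bears the family's name only. Usp30 matched the cysteine box and not the histidine box. The match was also lost in single alternative transcripts of Usp21, Usp46 and Usp50, each at 0.24 TPM or less.

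Most of the family was present in these macrophages at moderate levels. In both libraries 40 of the 55 USP genes (72.7%) reached 1 TPM, against 45.5% of all genes with a protein_coding transcript. At 10 TPM or more in both stood 22 USP genes (40.0%), against 28.5% of such genes, and no USP gene reached 100 TPM. The median USP gene was at 6.06 TPM in replicate 1 and 6.89 in replicate 2, and the median of all genes with a protein_coding transcript at 0.38 and 0.39 TPM. Among genes past 1 TPM the order was the other way round: 11.6 and 15.3 TPM for the 40 USP genes, 16.5 and 18.2 TPM for the 9968 genes. These are levels in bulk RNA, in which fewer cells of a type and less RNA per cell cannot be told apart.

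**Figure D1:**
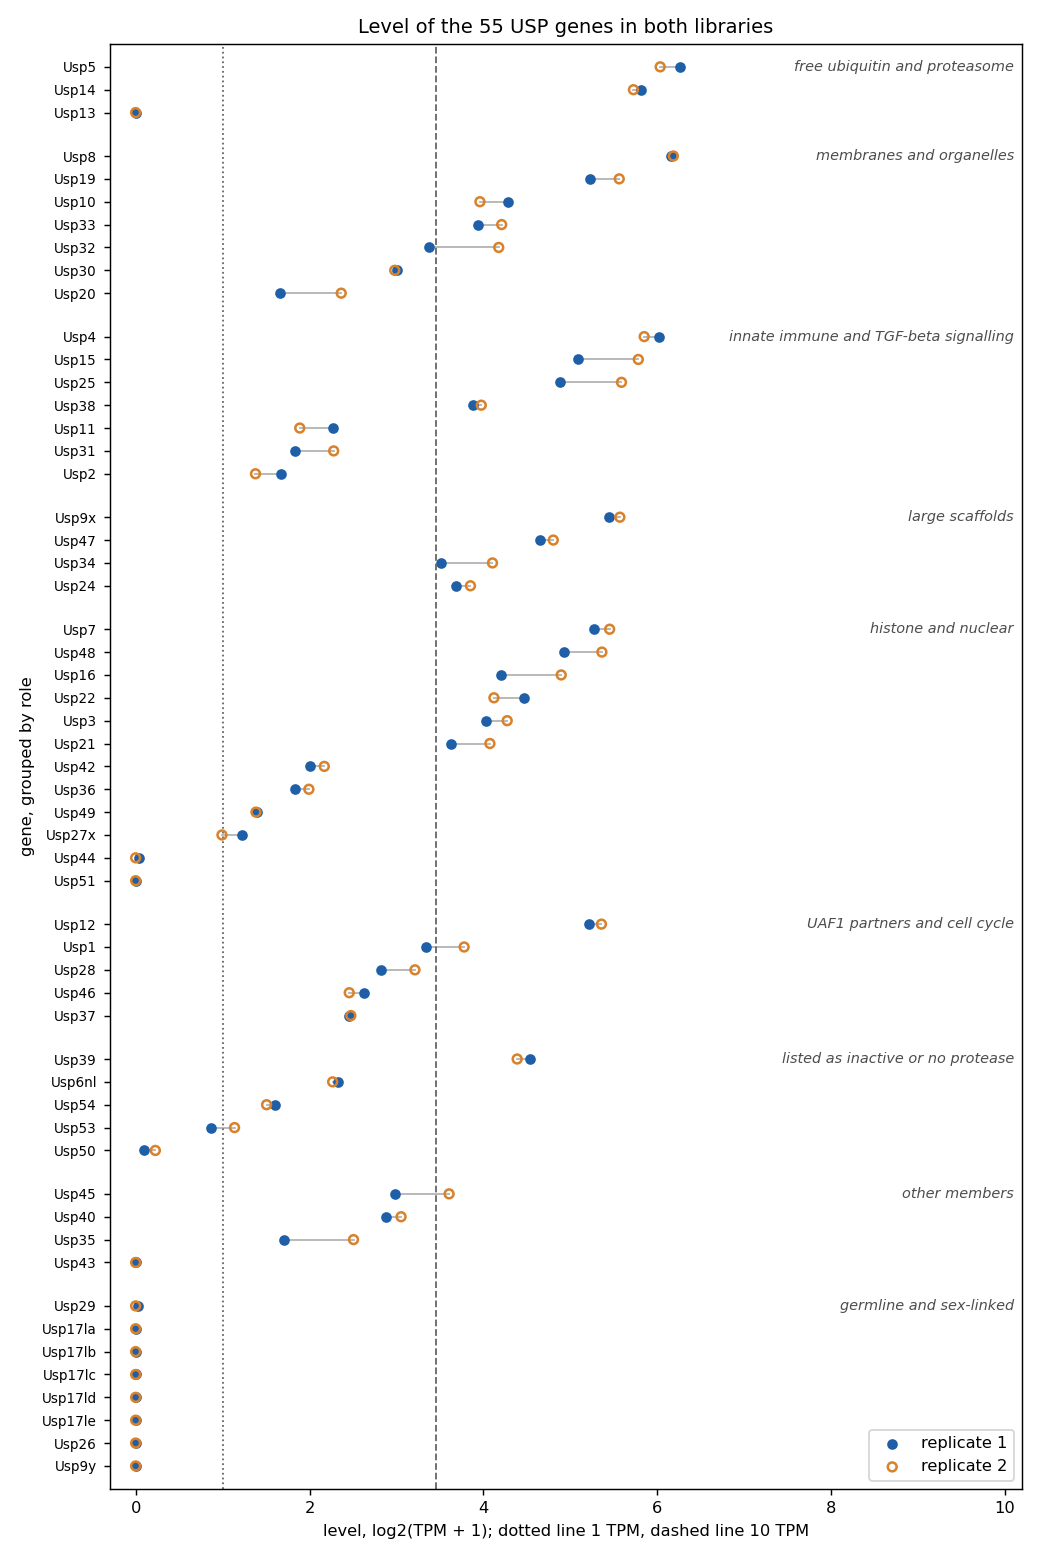
Level of each of the 55 USP genes as log2(TPM + 1), grouped by role, with replicate 1 as a filled point and replicate 2 as an open point joined by a line. Usp8, Usp5 and Usp4 stand highest, the 8 germline and sex-linked genes lie at or next to 0, and most genes keep their place between the libraries.

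The 10 most abundant of the 55 genes held most of the family's summed TPM. The 5 most abundant took 39.8% of the summed USP TPM of replicate 1 and 33.5% of replicate 2, and the top 10 took 62.1% and 59.9%. The summed level was 772 TPM in replicate 1 and 870 TPM in replicate 2.

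Usp5 and Usp14, which handle free ubiquitin and the chains on the proteasome, were among the top 5, while the third gene of that group had no counts. Usp5, which takes apart unanchored ubiquitin chains, was at 75.6 TPM in replicate 1 and 64.5 in replicate 2 (70.1 ± 7.86, mean ± SD, n = 2). Usp14, which works on the proteasome, was at 55.2 and 51.9 TPM. Usp13, the closest relative of Usp5, had 0 counts in both libraries of the first tables, a count that allows up to 0.0412 TPM in replicate 1 and 0.0292 in replicate 2. At the floor of 3 counts per library, Usp5 was at least 1836-fold higher than Usp13 in replicate 1 and at least 2205-fold higher in replicate 2. Psmd2, the proteasome subunit that Usp14 docks on, was at 161 and 134 TPM.

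All 7 members that work on membranes and organelles were detected. Usp8, which acts on receptors at endosomes, had the highest mean of the family, with 70.6 TPM in replicate 1 and 71.7 in replicate 2 (71.2 ± 0.820, n = 2). Its mean exceeds that of Usp5 by less than the spread of Usp5 between the libraries, so the first place is not settled. Usp19, which has a form anchored in the endoplasmic reticulum, was at 36.5 and 46.3 TPM. Usp10, a partner of the stress granule proteins G3bp1 and G3bp2, was at 18.4 and 14.6 TPM. The relatives Usp33 and Usp20, named for binding the von Hippel-Lindau protein, stood apart: Usp33 was at 14.3 and 17.5 TPM and Usp20 at 2.17 and 4.15 TPM. Usp32 was at 9.37 and 17.1 TPM and Usp30, the enzyme of the outer mitochondrial membrane, at 7.05 and 6.89 TPM. Among their partners, Stam2, which holds Usp8 at endosomes, was at 22.0 and 21.9 TPM.

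The members known from innate immune and TGF-beta signalling ranged widely. Usp4 was at 63.8 TPM in replicate 1 and 56.7 in replicate 2. Its relative Usp15, which acts on the TGF-beta receptor complex, was at 33.0 and 54.0 TPM at the gene level, with the makeup described further on. The third of these relatives, Usp11, was at 3.82 and 2.70 TPM, the lowest of these relatives in both libraries. Usp25, which acts on TRAF adaptors, was at 28.4 and 47.1 TPM, above its relative Usp28 at 6.06 and 8.27. Usp38 was at 13.8 and 14.7 TPM, Usp31 at 2.56 and 3.85 TPM, and Usp2 at 2.19 and 1.60 TPM. At the gene level all 7 thus passed 1 TPM in both libraries, with 4 of them past 10 TPM. On protein_coding transcripts alone, Usp2 was below 1 TPM in both libraries, at 0.33 and 0.89. On the same measure Usp15 was below 10 TPM, at 3.54 and 3.48.

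The 4 members listed as large scaffolds were all past 10 TPM. The list is from general knowledge and not by length alone. Usp47 has 1375 codons, fewer than Usp32 (1603) and Usp54 (1587), which were listed elsewhere. Usp9x, an X-linked gene whose coding sequence has 2553 codons, was at 42.6 and 46.5 TPM. Usp47 followed at 24.2 and 26.9 TPM, Usp34, with 3581 codons the longest coding sequence of the 55 members, at 10.4 and 16.2, and Usp24 at 11.9 and 13.4 TPM. Usp9y, the Y-linked copy of Usp9x, had 0 counts in both libraries, so that Usp9x was at least 2776-fold and 4293-fold higher in replicates 1 and 2.

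Of the 12 members that act on histones or in the nucleus, 9 were detected in both libraries and 6 passed 10 TPM. Usp7, which deubiquitinates Mdm2 and p53, was at 37.8 TPM in replicate 1 and 42.8 in replicate 2. Usp48 stood at 29.4 and 40.2 TPM, and Usp16 and Usp3, both histone H2A deubiquitinases, at 17.4 and 28.8 and at 15.4 and 18.3 TPM. Usp22 is the protease of the SAGA coactivator, and it was at 21.1 and 16.4 TPM. Its relative Usp27x, which uses the same adaptors, lay next to the detection limit at 1.34 and 0.99 TPM, and the other relative, Usp51, had 0 counts in both. Usp22 was therefore at least 340-fold higher than Usp51 in replicate 1 and 371-fold in replicate 2. The shared adaptors Eny2 and Atxn7l3 were at 36.5 and 39.1 and at 23.9 and 24.2 TPM. Usp21 stood at 11.4 and 15.9 TPM, Usp42 at 3.01 and 3.50, the nucleolar Usp36 at 2.57 and 2.98, and Usp49 at 1.63 and 1.61. Usp44 had 2 counts in replicate 1 and 0 in replicate 2. In Usp49, 51.2% of exon bases are shared on the same strand with the annotated gene Gm20517, so its level depends on how those reads were assigned.

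Usp1, Usp12 and Usp46 need the activator Wdr48 (UAF1), which was at 20.8 and 21.3 TPM. Usp12 was by far the highest of them, at 36.0 TPM in replicate 1 and 40.0 in replicate 2, while its close relative Usp46 was at 5.20 and 4.49 TPM. Usp1, which deubiquitinates Fancd2 and Pcna, was at 9.10 and 12.7 TPM. Its substrate Fancd2 was at 1.29 and 0.17 TPM, and Pcna at 376 and 236 TPM, both lower in replicate 2 while Usp1 was higher. Usp37, known from the cell cycle, was at 4.49 and 4.56 TPM. In Usp1, 23.2% of the 50-base stretches of its main transcript also occur in Gm5841. Usp33 (34.6%), Usp38 (24.4%) and Usp34 (16.8%) also shared such stretches with other genes, counted on either strand. In Usp14, 26.0% of exon bases lie opposite exons of Thoc1.

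Of the members grouped as inactive or as no protease, Usp39 was the highest, at 22.3 TPM in replicate 1 and 19.9 in replicate 2. Usp6nl was at 4.02 and 3.81 TPM and Usp54 at 2.03 and 1.84. Usp53, the relative of Usp54, lay on both sides of the limit at 0.83 and 1.20 TPM. Usp50 had 3.13 expected counts in replicate 1 and 11.4 in replicate 2, 0.07 and 0.17 TPM, and 9.99 and 58.9 counts, 0.164 and 0.821 TPM, in the second table. The grouping is from general knowledge and not from the sequences: Usp50 matched both boxes, and Usp53 and Usp54 have a cysteine and a histidine box. These are short patterns, and a match does not show whether a protein is active. Of the members in no such group, Usp45 was at 6.90 and 11.2 TPM, Usp40 at 6.37 and 7.30, and Usp35 at 2.26 and 4.68, and Usp43 had 0 counts.

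No germline or sex-linked member was detected. In the first tables Usp9y, Usp26 and all 5 Usp17l genes had 0 counts in both libraries, and Usp29, an imprinted gene, had 2 counts in replicate 1 and 0 in replicate 2. With Usp13, Usp43 and Usp51 this makes 10 members at 0 counts in both, for which 3 counts would come to between 0.0108 and 0.0986 TPM, depending on the gene and library. Of these 10, 7 were also at 0 in the second table, while Usp17la had 5.50 and 19.1 estimated counts (0.0708 and 0.186 TPM), Usp26 had 1 and 9, and Usp13 had 0 and 4. The Usp17l genes share sequence with each other (50.4% of the 50-base stretches of Usp17ld occur in Usp17lc), so that single reads among them could not be placed with certainty. Altogether 13 members stayed below 1 TPM in both libraries, and Usp27x and Usp53 fell on either side of the limit.

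In all 18 pairs of related members compared, the same gene was the higher one in both libraries. The closest pairs were Usp42 over Usp36, 1.17-fold apart in replicate 1 and in replicate 2, and Usp4 over Usp15, 1.93-fold and 1.05-fold. In the second transcript table, which the submitters derived directly from the reads, 16 pairs kept a single order over both libraries, the exceptions being Usp4 with Usp15 and Usp53 with Usp54. The pairs fell into those with both genes present (Usp16 and Usp45, Usp25 and Usp28, Usp12 and Usp46) and those with a gene at or near 0, as with Usp5 and Usp13, Usp9x and Usp9y, Usp22 and Usp51, Usp8 and Usp50, Usp31 and Usp43, and Usp49 and Usp44. Usp31 was at least 53.8-fold higher than Usp43 in replicate 1 and 114-fold in replicate 2.

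**Figure D2:**
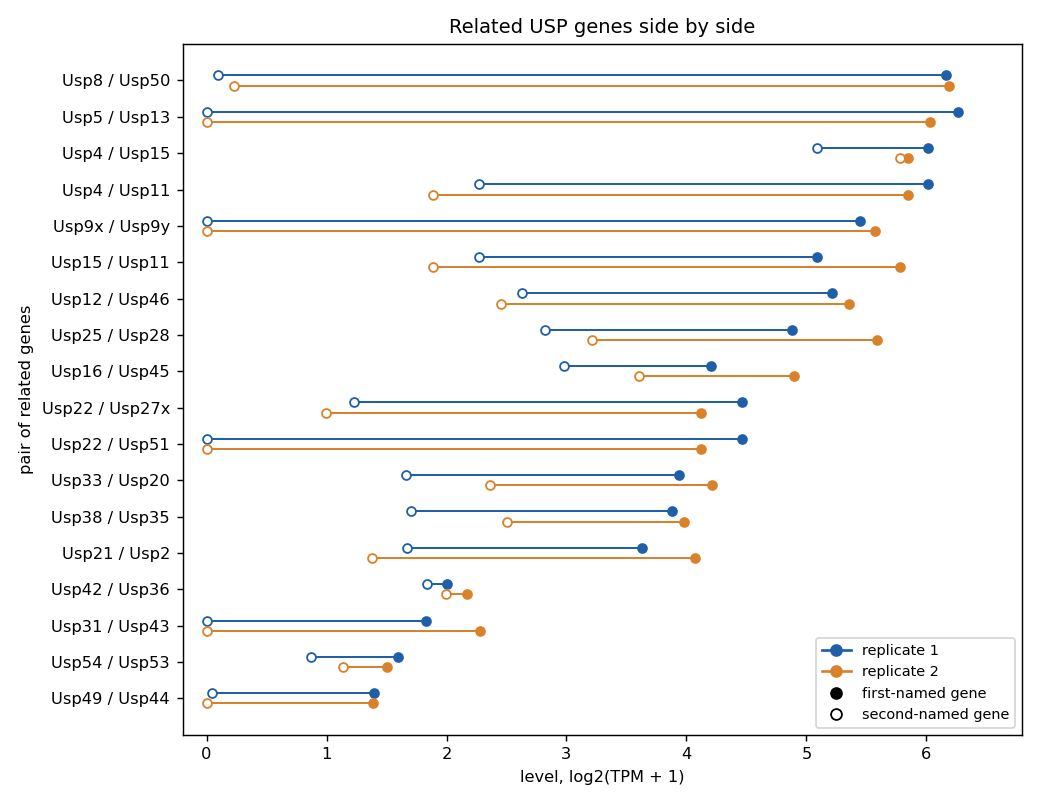
Levels of 18 pairs of related USP genes as log2(TPM + 1), the first-named gene as a filled point and the second as an open point, a line for each library. The filled point lies to the right in every pair and both libraries, narrowly so for Usp4 over Usp15 in replicate 2 (56.7 and 54.0 TPM).

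Gene-level TPM does not say which transcripts were counted, and for Usp15 this mattered most. Usp15 spans 11 annotated transcripts, 3 of them protein_coding. Transcripts not annotated protein_coding took 89.3% of its TPM in replicate 1 and 93.6% in replicate 2, and 94.4% and 95.0% in the second transcript table. Most of it fell on 2 transcripts annotated as retained intron. Usp15-208 (1587 bases, chr10:123113228-123127885, minus strand) was at 15.8 TPM in replicate 1 and 27.6 in replicate 2. Usp15-209 (2603 bases, chr10:123124295-123196966, minus strand) was at 11.5 and 19.9 TPM. Both are made almost wholly of bases that also lie in exons of coding transcripts: 1571 of 1587 bases (99.0%) in Usp15-208 and 2384 of 2603 (91.6%) in Usp15-209. How many reads tell these transcripts from coding ones was not tested.

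By expected counts the coding transcripts of Usp15 held more than by TPM, 384 of 1668 counts in replicate 1 (23.0%) and 861 of 3958 in replicate 2 (21.8%), since the longest of them has 11525 bases. Their summed level was 3.54 and 3.48 TPM. With protein_coding transcripts only, Usp15 moved from rank 6 in the family to rank 31. The sum hides opposite movements: Usp15-201 was at 0.96 and 1.62 TPM and Usp15-211 at 0.97 and 1.52, while the short Usp15-207 of 414 bases was at 1.61 and 0.34. On that measure Usp11 and Usp15 no longer had a constant order, Usp11 being at 3.79 and 2.43 TPM.

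At a mean of 5 TPM or more, 3 other members of 28 had 30% or more of their TPM on other than protein_coding transcripts in both libraries. The same count over all genes was not made, so this is no trait of the family. Usp7 had 43.9% in replicate 1 and 45.1% in replicate 2, nearly all on Usp7-206, annotated for nonsense-mediated decay, 98.3% of whose 4488 bases lie in coding exons. The second table gave 24.7% and 26.0% for Usp7. Usp16 had 48.1% and 49.4%, and 10.4% and 23.9% in the second table. The second table instead put Usp3 past 30%, at 38.6% and 42.9% (5.26% and 10.9% in the first tables), and gave Usp14 19.2% and 26.0% (4.55% and 9.88%). In Usp16 the largest such part was Usp16-210, a retained intron transcript of 358 bases with only 17.4 and 31.3 expected counts, at 6.22 and 9.13 TPM. Usp10 had 51.3% and 42.9%, and 39.5% and 38.7% in the second table. Its Usp10-207 was at 6.95 and 2.78 TPM, on 35.0 and 17.9 counts, and all of its 459 bases lie in coding exons. For Usp16 and Usp10 small counts on a short transcript thus weighed heavily in TPM: by counts, coding transcripts held 91.3% and 89.6% of Usp16 and 81.3% and 80.1% of Usp10.

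Over the whole family, protein_coding transcripts took 87.8% of TPM in replicate 1 and 84.1% in replicate 2, against 91.8% and 91.2% over all genes with such a transcript. Retained intron transcripts took 7.0% and 10.9% of the family's TPM, against 3.14% and 3.42%. Without Usp15 these shares were 3.33% and 5.39%, and protein_coding transcripts took 91.3% and 89.2%. Most of the distance between the family and all genes in retained intron share thus came from Usp15 in both libraries. Of 24 members at a mean of 10 TPM or more, 8 had a second transcript with at least 20% of TPM in both libraries: Usp4, Usp9x, Usp15, Usp7, Usp16, Usp3, Usp33 and Usp34. How many of all genes pass this limit was not counted. In the second table only 2 of these 8 second transcripts, those of Usp15 and Usp7, kept 20% in both libraries. In Usp4 both were coding, with Usp4-201 at 42.3 and 35.5 TPM and Usp4-209 at 13.1 and 12.4 TPM.

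**Figure D3:**
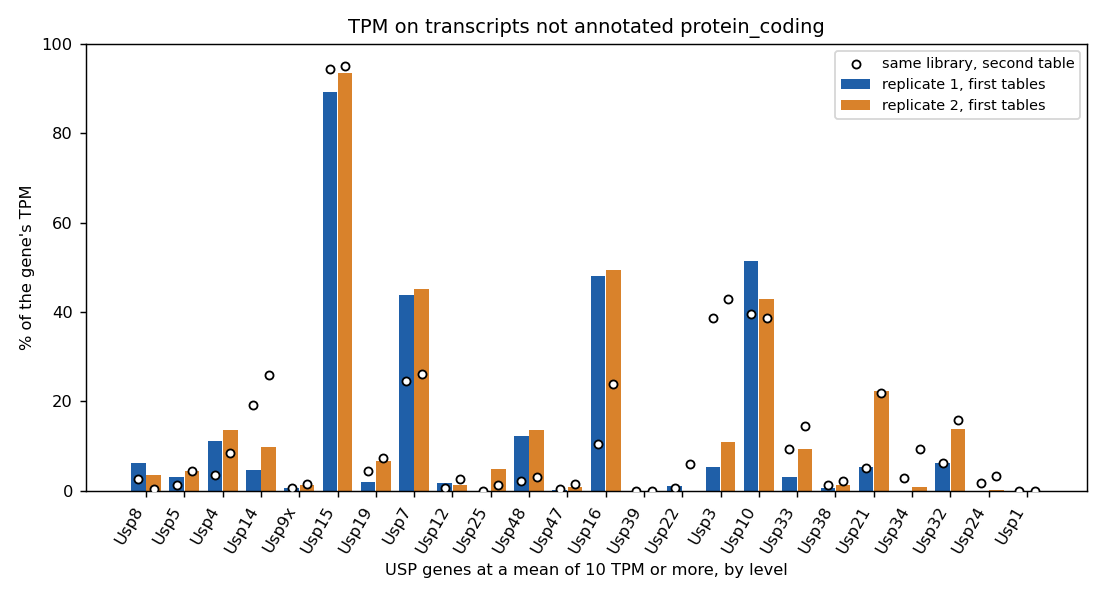
Share of TPM, in percent, on transcripts not annotated protein_coding for 24 USP genes whose mean is 10 TPM or higher, as bars for the first tables and open points for the second. Usp15 stands apart at 89.3% and 93.6%, and the points of Usp7, Usp16 and Usp10 lie below their bars.

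The libraries were also compared with each other, since they are meant to be alike. The comparison used an exact two-sided binomial test per gene on the rounded expected counts, scaled by the trimmed mean of M-values (TMM), with Benjamini-Hochberg adjustment at 0.05 over 12266 genes. It says only whether these 2 libraries differ beyond counting noise, and p-values do not concern conditions. Of 42 USP genes tested, 20 were higher in replicate 2 (47.6%, against 32.2% of all genes tested) and 11 were lower (26.2%, against 31.3%), and 11 passed in neither direction. Scaled by total counts, which moved the median log2 ratio of all genes by 0.12, the split was 26 higher (61.9%, against 42.8% of all genes) and 7 lower (16.7%, against 20.3%). The higher share among calls then rose from 64.5% to 78.8%, where it was 67.9% over all genes. The libraries' common coefficient of variation beyond counting noise was 0.25 (edgeR).

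Upward differences over 1.5-fold were about as frequent among USP genes as among all genes tested. Over 1.5-fold higher in replicate 2 were 6 USP genes (14.3%, against 13.3% of all genes), and over 1.5-fold lower was 1 (2.38%, against 7.98%). Usp35 differed most, with 160 counts in replicate 1 and 502 in replicate 2, a log2 ratio of 1.07 after scaling. Usp45 had 860 and 2186 counts and a log2 ratio of 0.77. The others were Usp15 (log2 ratio 0.67), Usp32 (0.65), Usp16 (0.63) and Usp25 (0.59), the last lying just past the limit. All 6 were also called higher by the exact binomial test. Next below the limit came Usp20, 1.44-fold higher, and Usp31, 1.43-fold higher.

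Usp11 was the gene over 1.5-fold lower in replicate 2. It had 306 and 290 counts, a log2 ratio of -0.65 with an adjusted p of 1.24e-07 in the exact binomial test, and its TPM was 3.82 and 2.70. With total counts in place of TMM its log2 ratio was -0.54, which is within 1.5-fold. Usp22 (log2 ratio -0.43), Usp27x (-0.42), Usp5 (-0.33) and Usp4 (-0.27) were called lower at smaller sizes. The call of Usp27x was lost with total counts (adjusted p = 0.135, exact binomial test) and in the second table, where its log2 ratio was -0.07. Of the 10 most abundant members, Usp8 (log2 ratio -0.05) and Usp9x (-0.05) had the ratios closest to 0 and were called in neither direction. At that size the call depended on the setting: both were called higher with total counts (0.07 each), and lower with DESeq2 size factors, with no low-count filter and in the second table (-0.09 and -0.08 there).

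By role, counts are read against 32.2% higher and 31.3% lower over all genes. Both tested members of the free ubiquitin and proteasome group, Usp5 and Usp14, were lower in replicate 2, and none was higher. Of the 4 large scaffolds 3 were higher and none lower, but 1 was higher (Usp34) and 1 lower (Usp9x) in the second table. Of the 7 immune and TGF-beta members 3 were higher (Usp15, Usp25, Usp31) and 2 lower (Usp4, Usp11), so that the relatives Usp4, Usp11 and Usp15 were split. Of the 10 nuclear members tested 5 were higher and 2 lower, and of the 7 membrane and organelle members 4 and 2. Usp2 shows that TPM and counts can part: its counts were 41 and 80, and its TPM 2.19 and 1.60, with 1.15 and 0.70 TPM on Usp2-204, a short transcript annotated for nonsense-mediated decay. In the same libraries all 12 cell cycle genes were called lower in replicate 2 and all 10 interferon genes higher, and the part of these differences in the USP values was not tested.

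**Figure D4:**
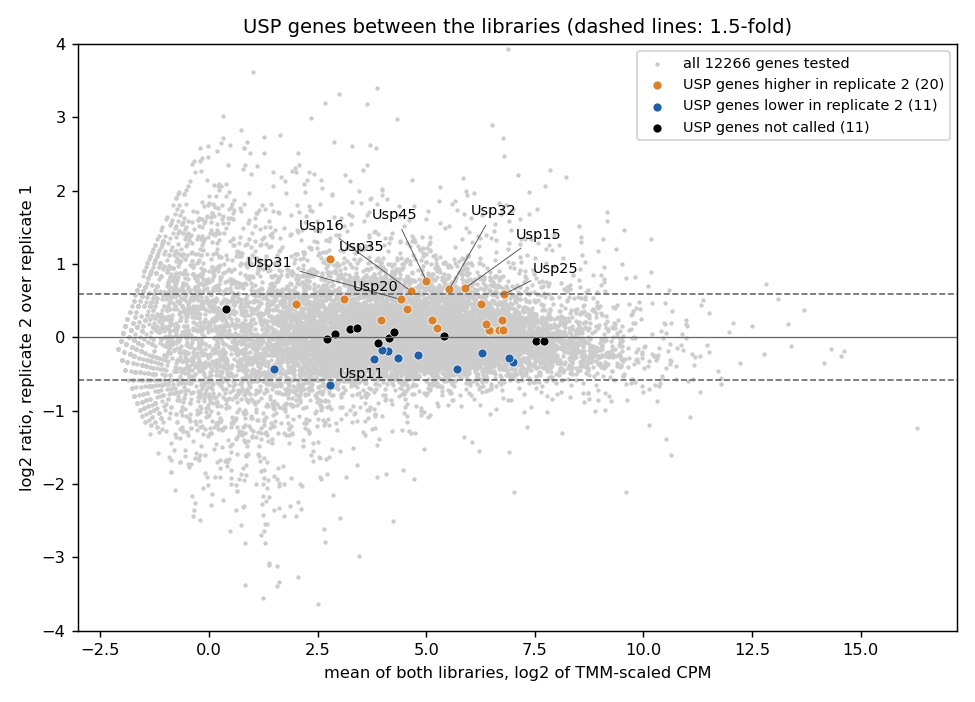
Log2 ratio of replicate 2 over replicate 1 against the mean of both as log2 of TMM-scaled CPM, grey for the 12266 genes tested and coloured for the 42 USP genes; 2 grey points lie outside the plotted range. The USP genes range from Usp11 (-0.65) to Usp35 (1.07).

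The promoter windows of undetected members had a lower median of CG dinucleotides than those of detected ones. RefSeq windows of 300 bases (GRCm38.p6, 250 before to 50 after the start) could be matched for 43 members, and CG dinucleotides were counted in them. Members without a matched window included the abundant Usp5, Usp14 and Usp9x. CG reads the same on both strands. Of the 40 members at 1 TPM or more in both libraries, 32 were matched. These had a median of 32 CG, with 29 of 32 (90.6%) at 10 or more. The 11 other matched members had a median of 5, with 4 of 11 (36.4%) at 10 or more. The same shares over other genes with a protein_coding transcript were 85.0% of 7970 detected and 34.4% of 8506 not detected, close to those of the USP genes. Over the 43 members together 33 (76.7%) held 10 or more. The 11 undetected members include the closely related Usp17la, Usp17lb and Usp17lc, with 1 CG each, and Usp17ld, with 0. Their low median thus rests in part on near-copies, and the rest ranged from 2 CG (Usp50) to 36 (Usp13).

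Usp13 and Usp54, among the members that went against the rest, are shown beside Usp8 and Usp17ld, which did not. Each stretch is 120 bases before the start, 5′ to 3′ on the gene's strand, with CG in capitals. Usp8 (chr2:126707208-126707327, plus strand, mean level 71.2 TPM) lies near the median of the detected members, with 34 CG in its full window and 11 in the stretch shown. Usp13 (chr3:32817506-32817625, plus strand, 0 counts) has 36 CG in the full window and 15 in the stretch. Usp54 (chr14:20618355-20618474, minus strand, mean level 1.94 TPM) has 5 and 2. Usp17ld (chr7:103252506-103252625, minus strand, 0 counts) has 0 in both. A single window was used per gene, and the annotated Usp54 gene extends upstream of its window to position 20641063. Which start of Usp54 was in use was not tested.
Usp8: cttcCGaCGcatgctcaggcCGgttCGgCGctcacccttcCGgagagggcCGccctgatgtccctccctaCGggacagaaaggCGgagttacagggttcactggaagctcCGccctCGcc
Usp13: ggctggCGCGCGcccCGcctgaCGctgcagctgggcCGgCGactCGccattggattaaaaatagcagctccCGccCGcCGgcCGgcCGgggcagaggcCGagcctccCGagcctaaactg
Usp54: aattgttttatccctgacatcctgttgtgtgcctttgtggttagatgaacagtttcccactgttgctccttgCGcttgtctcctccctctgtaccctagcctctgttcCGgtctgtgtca
Usp17ld: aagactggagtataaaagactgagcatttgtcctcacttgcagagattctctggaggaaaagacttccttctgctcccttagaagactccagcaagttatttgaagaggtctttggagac

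Besides Usp13, the members not at 1 TPM in both libraries that had 10 or more CG were Usp29 (17), Usp9y (12) and Usp27x (25), which missed the limit in replicate 2 only. The detected members with a matched window and fewer than 10 were Usp54 (5), Usp10 (8) and Usp11 (8). Methylation and chromatin were not measured in these samples.

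**Figure D5:**
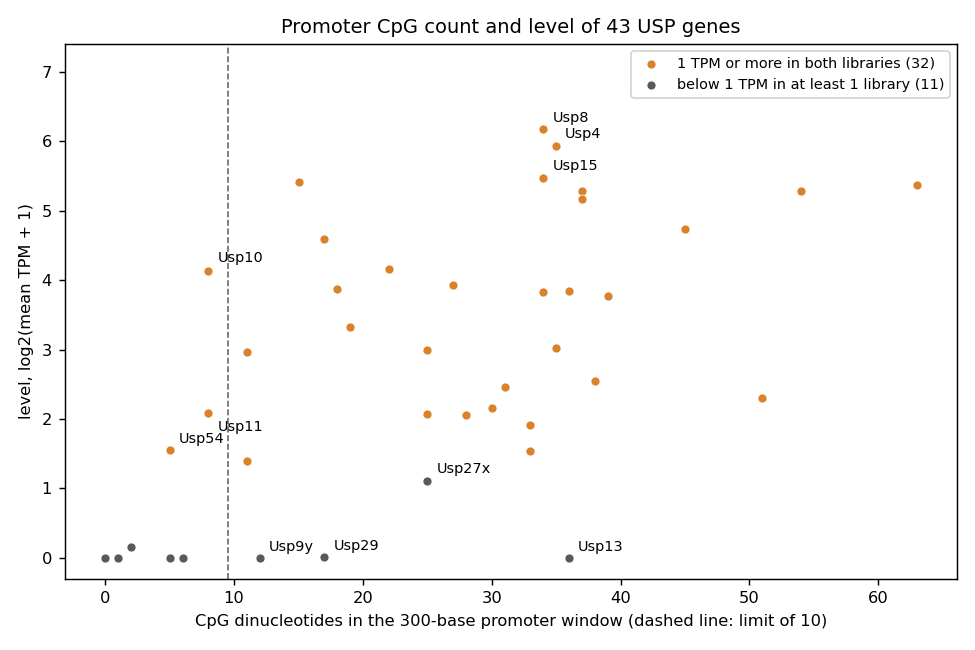
Level as log2(mean TPM + 1) of 43 USP genes against the number of CG dinucleotides in the 300-base promoter window, coloured by detection at 1 TPM or more in both libraries. Points at a level of 0 gather at low counts, with Usp13 (36 CG) as the far exception, and Usp10, Usp11 and Usp54 lie left of the dashed limit of 10 although detected.

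Other deubiquitinases give the scale for these levels. Of the USP-fold genes under other names or left out, Usp18 was at 22.8 TPM in replicate 1 and 44.2 in replicate 2, Cyld at 13.3 and 19.3, Uspl1 at 8.80 and 8.71 and Pan2 at 2.14 and 3.54. In the OTU family 13 of 16 genes were detected, led by Tnfaip3 (A20) at 147 and 356 TPM, above every USP gene. The genes listed under the JAMM family, which include subunits without a metal site, were all detected, 11 of 11. Eif3h, a translation initiation factor subunit, led them at 216 and 243 TPM, and Psmd14, the proteasome's own deubiquitinase, was at 77.7 and 79.7. Of the UCH family 3 of 4 were detected, of the Josephins 3 of 3, and of the MINDY and ZUP1 genes 4 of 5, led by Mindy1 at 119 and 101 TPM. The USP genes' own share can be set beside their substrate: the ubiquitin gene Ubb alone was at 1005 and 1070 TPM, above the 772 and 870 TPM of all 55 USP genes together. Of 14 matched partner proteins of USPs, 12 passed 1 TPM in both libraries, led by Psmd2 and by G3bp2 (60.4 and 75.6 TPM).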

How the data were processed

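Each library had a gene table, a transcript table and a second transcript table, made on mm10 with GENCODE M21 per the labels and the deposited text files; the quantification tools and the strand setting were not given in the sources used here. Per the file headers the deposited values are expected counts (not normalized), TPM and FPKM, the last 2 scaled by the authors, and the second table holds estimated counts and TPM per transcript, summed per gene as an alternative. Expected counts were rounded for the exact binomial test (R 4.3.3), with TMM factors and the low-count filter of edgeR 4.0.16 and DESeq2 1.42.0 size factors as an alternative; the quasi-likelihood test was not possible with 1 group. The test was checked on simulated counts with counting noise only (Poisson). The common coefficient of variation beyond counting noise was 0.25 between these libraries, so the check does not cover that variation. Alternatives concerned limits, units, pseudocounts, scaling, filters, tables and each library alone. Every member could be named; more detail was given to the 10 highest, the 10 that differed most between libraries (from 1 TPM and 50 counts), members at 0 counts, related pairs, and members by transcript makeup. The members and lists were chosen with earlier results of these data known. The search for the cysteine box had been planned on RefSeq proteins and used coding sequence instead. Marker lists were macrophage, neutrophil, T cell, B cell, erythroid and stromal. Separate cultures are not described, so differences between the libraries may be technical.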

Additional observations from a re-analysis of the deposited data

How the results depend on the processing

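The count of members at 1 TPM or 10 TPM and the order of pairs stayed within 1.5 times of their reported values under all alternatives run. The median level of the members, 2.97 as mean log2(TPM + 1), was 2.84 in the second table, 2.48 in FPKM, 2.79 with a pseudocount of 0.1, 3.83 over members at 1 TPM or more, and 2.54 with protein_coding transcripts only, a setting chosen after seeing the data; with either library left out it ranged from 2.82 to 2.98. Scaling by total counts gave 7 members lower in replicate 2 in place of 11, and 0 over 1.5-fold lower in place of 1; with no filter that count was 3. The share of TPM on protein_coding transcripts, 86.0% as a mean of both libraries, was 90.3% without Usp15, also chosen after seeing the data. In the second table the TPM of 27 of 55 members moved by more than the SD between the libraries. Among log2 ratios between the libraries, 6 of 42 changed sign, none of them called as reported: with total counts Usp8 (0.0691), Usp9x (0.0714), Usp28 (0.0352), Usp37 (0.107) and Usp49 (0.101), and in the second table Usp38 (-0.0176). No paired analysis was possible because there is a single group. The floors for members at 0 counts hold for the first tables, and the second exceeded them for Usp17la and Usp26, and 2 libraries without untreated samples allow no statement on the response.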
